A study of Homo sapiens with 9 samples.

Results

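The MHC class II genes HLA-DRA, HLA-DRB1, HLA-DRB5, HLA-DPA1, HLA-DPB1, HLA-DQA1, HLA-DMA and HLA-DMB, with CD74 and CIITA, were described in RNA sequencing libraries of CAL-1. CAL-1 is a human line grown from BPDCN, a leukaemia of plasmacytoid dendritic cell origin. These 10 genes were taken by symbol from a table of 25540 gene symbols. They were chosen on measured values, because class II genes had shown a small shift between knockdown and control in an earlier analysis of the same libraries. The differences between knockdown and control are therefore given as a description. Their standard errors, intervals and counts of calls are not used as a test of the 10 genes. All 10 genes had a mean of at least 1 TPM (a level per transcript length, scaled so that each library has the same total) and were among the 10939 genes tested.

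The study knocked down KHSRP in CAL-1 by CRISPR interference, a method that represses a gene without cutting its DNA, and compared knockdown with control cells. There were 3 libraries of the control group, labelled NTC with a WT genotype, 3 of the group KHSRPi#1 and 3 of the group KHSRPi#2, both with the genotype KHSRP knockdown. All 9 libraries come from the 1 cell line, and the labels give 1 shared batch for all of them. The sources used here do not give what the numbers after KHSRPi stand for, where the guides bind or whether replicates were separate cultures. The p-values therefore reflect the library-to-library spread alone, and that spread may be technical. The levels are TPM, which keep no read totals, so the depth behind each value is unknown.

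MHC class II molecules present peptides from endocytosed proteins to CD4+ T cells. Each is a pair of an alpha chain (HLA-DRA, HLA-DPA1, HLA-DQA1) and a beta chain (HLA-DRB1, HLA-DRB5, HLA-DPB1). CD74, the invariant chain, fills the groove of a new molecule and guides it to endosomes, where the HLA-DMA and HLA-DMB pair helps exchange the remaining CD74 fragment for peptide. CIITA is the transactivator of the group: it does not bind DNA itself but is recruited by RFX, NF-Y and CREB proteins that occupy the X and Y boxes of class II promoters. Plasmacytoid dendritic cells, the normal counterpart of BPDCN, carry class II molecules. KHSRP binds AU-rich elements in messenger RNAs and speeds their decay.

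The 8 HLA genes lie within 647 kb of chromosome 6, between positions 32439842 and 33087201 (GENCODE 29, hg38). On the plus strand are HLA-DRA (32439842 to 32445046), HLA-DQA1 (32628179 to 32647062) and HLA-DPB1 (33075926 to 33087201). On the minus strand are HLA-DRB5 (32517343 to 32530287), HLA-DRB1 (32578769 to 32589848), HLA-DMB (32934629 to 32941070), HLA-DMA (32948613 to 32969094) and HLA-DPA1 (33064569 to 33080775). CD74 lies on chromosome 5 (150401637 to 150412929, minus strand) and CIITA on chromosome 16 (10866222 to 10943021, plus strand). HLA-DPA1 and HLA-DPB1 overlap on opposite strands, and HLA-DRB1 and HLA-DRB5 are close copies of each other. The sources used here do not give how reads were divided between such genes or whether strand was used, and their single values are uncertain.

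The promoter elements through which CIITA acts can be read in the reference sequence. RefSeq windows (GRCh38.p14, 250 bases before to 50 after the annotated start) were matched for 8 of the 10 genes, without HLA-DRA and CIITA. The letters ATTGG, the core of the Y box, were searched on both strands together with ACNGATG, a run seen in the X box of the first windows examined and chosen after the sequences were seen. The 80 base stretches around the ATTGG match of 5 genes are shown because they range from both motifs to ATTGG alone within the stretch. The ACNGATG match of CD74 lies outside its stretch. A stretch without ACNGATG is not read as lacking an X box. They are printed 5′ to 3′ on the gene's strand, with both motifs in capitals on either strand (CCAAT is ATTGG read on the other strand).
HLA-DRB1, chr6:32589875-32589954, minus strand: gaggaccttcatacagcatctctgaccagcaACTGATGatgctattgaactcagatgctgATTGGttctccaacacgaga
HLA-DRB5, chr6:32530358-32530437, minus strand: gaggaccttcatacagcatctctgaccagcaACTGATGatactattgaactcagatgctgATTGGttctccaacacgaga
HLA-DMA, chr6:32953157-32953236, minus strand: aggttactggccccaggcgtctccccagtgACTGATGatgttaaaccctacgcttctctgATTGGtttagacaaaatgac
HLA-DQA1, chr6:32637278-32637357, plus strand: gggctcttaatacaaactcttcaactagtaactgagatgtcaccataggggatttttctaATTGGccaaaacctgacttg
CD74, chr5:150412944-150413023, minus strand: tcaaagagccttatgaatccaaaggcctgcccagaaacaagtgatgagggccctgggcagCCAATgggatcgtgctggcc

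In HLA-DRB1 and HLA-DRB5, 22 bases separated the motifs, and in HLA-DMA 23 bases did. ATTGG was found in 7 of the 8 matched genes, all but HLA-DPA1, and in 34.6% of 35116 windows of the same length over all genes. ACNGATG was found in 5 of the 8 genes (HLA-DRB1, HLA-DRB5, HLA-DMA, HLA-DMB and CD74) and in 7.65% of all windows. Both motifs occurred in the same window, on either strand and at any distance, in those 5 genes and in 2.78% of all windows. In HLA-DMB the ACNGATG match lay on the gene's strand and the ATTGG match on the other. In CD74 both lay on the other strand, with ACNGATG 209 and ATTGG 53 bases before the start. The longer run CTGATTGG, which contains ATTGG, was found in HLA-DRB1, HLA-DRB5 and HLA-DMA and in 3.97% of all windows. These matches describe letters and do not show that a factor binds there.

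KHSRP (chromosome 19, 6413348 to 6424794, minus strand) stood at 253, 244 and 216 TPM in NTC replicates 1 to 3. It stood at 35.1 TPM in each KHSRPi#1 library and at 35.8, 33.7 and 36.5 TPM in the KHSRPi#2 libraries. The mean of the 6 knockdown libraries, 35.2 ± 0.952 TPM (SD, n = 6), was 14.8% of the control mean of 237 ± 19.1 TPM (SD, n = 3), and every knockdown library was far below every control. Over all tested genes the first principal component, with 38.3% of the variance, set the 3 libraries numbered 3, 1 from each group, apart from the other 6.

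The class II genes were all present in CAL-1, over levels that ranged from CD74 at a mean of 1610 TPM, rank 88 of 10939 tested genes, to HLA-DPB1 at 3.76 TPM, rank 9470. HLA-DRA followed CD74 at 76.7 TPM, and then came HLA-DQA1 at 71.3 TPM, HLA-DRB1 at 43.0 TPM, HLA-DPA1 at 33.1 TPM and HLA-DRB5 at 32.8 TPM. HLA-DMA stood at 16.8 TPM, CIITA at 16.3 TPM and HLA-DMB at 7.29 TPM. Of neighbours in this order, the ranges over the 9 libraries overlapped for HLA-DRA and HLA-DQA1, for HLA-DPA1 and HLA-DRB5, and for HLA-DMA and CIITA. In the first of these pairs HLA-DRA was nevertheless the higher in 9 of 9 libraries, whereas HLA-DPA1 exceeded HLA-DRB5 in 7 of 9 and HLA-DMA exceeded CIITA in 7 of 9.

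**Figure D1:**
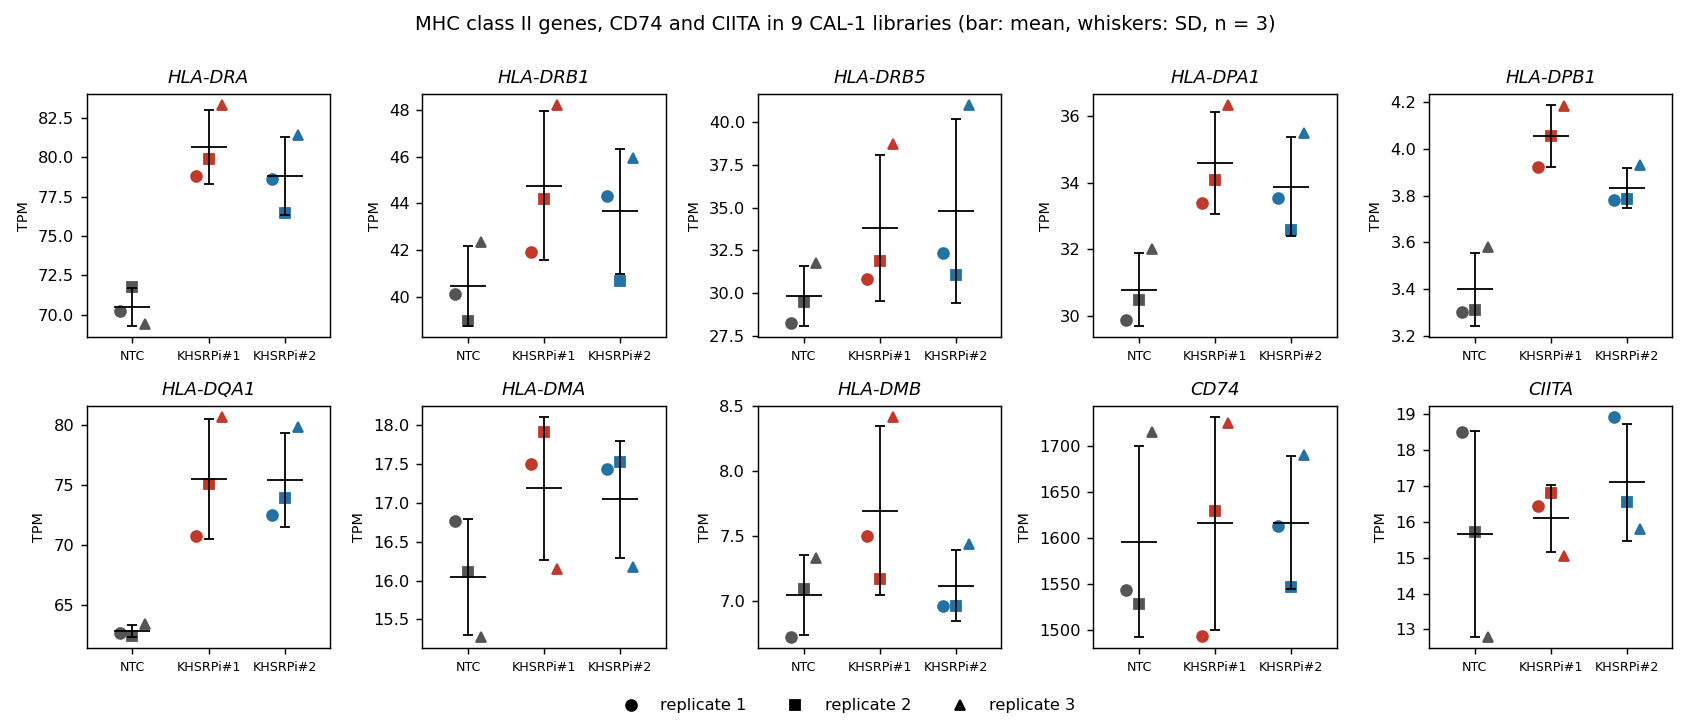
TPM of the 10 genes, 1 panel each with its own axis, for the 3 NTC, 3 KHSRPi#1 and 3 KHSRPi#2 libraries. Each point is a library, with a mark for its replicate number, and bars and whiskers are the mean and SD of the 3 libraries; the axes do not start at 0. The knockdown points of HLA-DRA, HLA-DPA1, HLA-DPB1 and HLA-DQA1 lie above all control points, while those of CD74 and CIITA are interleaved with the controls.

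The alpha chain genes of HLA-DR, HLA-DQ and HLA-DP were higher in every knockdown library than in every control. HLA-DRA, the single alpha chain of all HLA-DR molecules, stood at 70.2, 71.8 and 69.4 TPM in NTC replicates 1 to 3. It stood at 78.8, 79.9 and 83.3 TPM in KHSRPi#1 and at 78.7, 76.5 and 81.4 TPM in KHSRPi#2. The lowest knockdown library, KHSRPi#2 replicate 2, was above the highest control. The knockdown mean was 113% of the control mean, a difference of 0.18 (SE 0.04) on the log2(TPM + 1) scale used for all differences here.

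HLA-DQA1, the alpha chain of HLA-DQ, had the largest difference of the 10 genes between knockdown and control. It stood at 62.7, 62.4 and 63.4 TPM in NTC, at 70.8, 75.1 and 80.7 TPM in KHSRPi#1 and at 72.5, 74.0 and 79.9 TPM in KHSRPi#2. The knockdown mean of 75.5 ± 4.01 TPM (SD, n = 6) was 120% of the control mean of 62.8 ± 0.513 TPM (SD, n = 3), a log2 difference of 0.26 (SE 0.05). The groups did not overlap, and the knockdown libraries were more spread than the controls.

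HLA-DPA1, the alpha chain of HLA-DP, stood at 29.9, 30.5 and 32.0 TPM in NTC, at 33.4, 34.1 and 36.3 TPM in KHSRPi#1 and at 33.5, 32.6 and 35.5 TPM in KHSRPi#2. Its log2 difference was 0.15 (SE 0.05), again with no overlap between knockdown and control. Its beta chain HLA-DPB1 was measured at much lower levels, 3.30, 3.31 and 3.58 TPM in NTC, 3.92, 4.06 and 4.19 TPM in KHSRPi#1 and 3.78, 3.79 and 3.93 TPM in KHSRPi#2. These groups did not overlap either, and the log2 difference was 0.17 (SE 0.07), a value that the added pseudocount of 1 makes smaller than the ratio of the means, 116%.

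The HLA-DR beta chains overlapped between the groups. HLA-DRB1 stood at 40.1, 39.0 and 42.3 TPM in NTC, at 41.9, 44.2 and 48.2 TPM in KHSRPi#1 and at 44.3, 40.7 and 45.9 TPM in KHSRPi#2. HLA-DRB5 stood at 28.3, 29.5 and 31.7 TPM in NTC, at 30.9, 31.9 and 38.7 TPM in KHSRPi#1 and at 32.4, 31.1 and 41.0 TPM in KHSRPi#2. For both genes the highest library of each group was its replicate 3, and the replicate 3 control was above at least 1 knockdown library. The log2 differences were 0.12 (SE 0.06) for HLA-DRB1 and 0.19 (SE 0.10) for HLA-DRB5.

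The peptide-exchange pair and the invariant chain had smaller differences. HLA-DMA stood at 16.8, 16.1 and 15.3 TPM in NTC, at 17.5, 17.9 and 16.1 TPM in KHSRPi#1 and at 17.4, 17.5 and 16.2 TPM in KHSRPi#2, with the replicate 3 library the lowest of each group. HLA-DMB stood at 6.71, 7.09 and 7.33 TPM in NTC, at 7.50, 7.17 and 8.42 TPM in KHSRPi#1 and at 6.96, 6.95 and 7.43 TPM in KHSRPi#2, with the replicate 3 library the highest of each group. Their log2 differences were 0.09 and 0.06. CD74 stood at 1544, 1529 and 1716 TPM in NTC, at 1494, 1630 and 1725 TPM in KHSRPi#1 and at 1613, 1547 and 1691 TPM in KHSRPi#2. Its knockdown mean was 101% of the control mean, the smallest difference of the 10 genes, and its replicate 3 libraries were the 3 highest.

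CIITA stood at 18.5, 15.7 and 12.8 TPM in NTC, at 16.4, 16.8 and 15.0 TPM in KHSRPi#1 and at 18.9, 16.6 and 15.8 TPM in KHSRPi#2. The control libraries spanned a wider range than the knockdown libraries, and the lowest of the 9 was NTC replicate 3. The log2 difference was 0.09 (SE 0.10). CIITA and HLA-DRB5 had the widest ranges of the 10 genes, with a highest library 1.48 and 1.45 times the lowest, against 1.15 times for CD74.

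Because these are bulk libraries, more cells of a type and more RNA per cell cannot be told apart in any of these differences.

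All 10 genes had a positive difference between knockdown and control, where 58.3% of all tested genes did, and the median was 0.14 for the 10 genes and 0.02 for all. With limma, 0 of the 10 genes were called at an adjusted p under 0.05, and 0.0823% of all tested genes were called in either direction. At an unadjusted p under 0.05 there were 4 of the 10 genes and 867 of all genes. The knockdown libraries were all above the controls for 4 of the 10 genes and for 3.10% of all tested genes. With a term for the libraries numbered 3 in the fit, HLA-DQA1 and HLA-DRA were called higher, as were 1.27% of all tested genes. The call of HLA-DQA1 was lost without NTC replicate 3, where the value was 0.22, and that of HLA-DRA was kept in 2 of the 9 fits that left out 1 library, those without NTC replicate 2 and without KHSRPi#2 replicate 2. All these values come from the contrast on which the genes were chosen, and nothing is read from them about the genes.

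**Figure D2:**
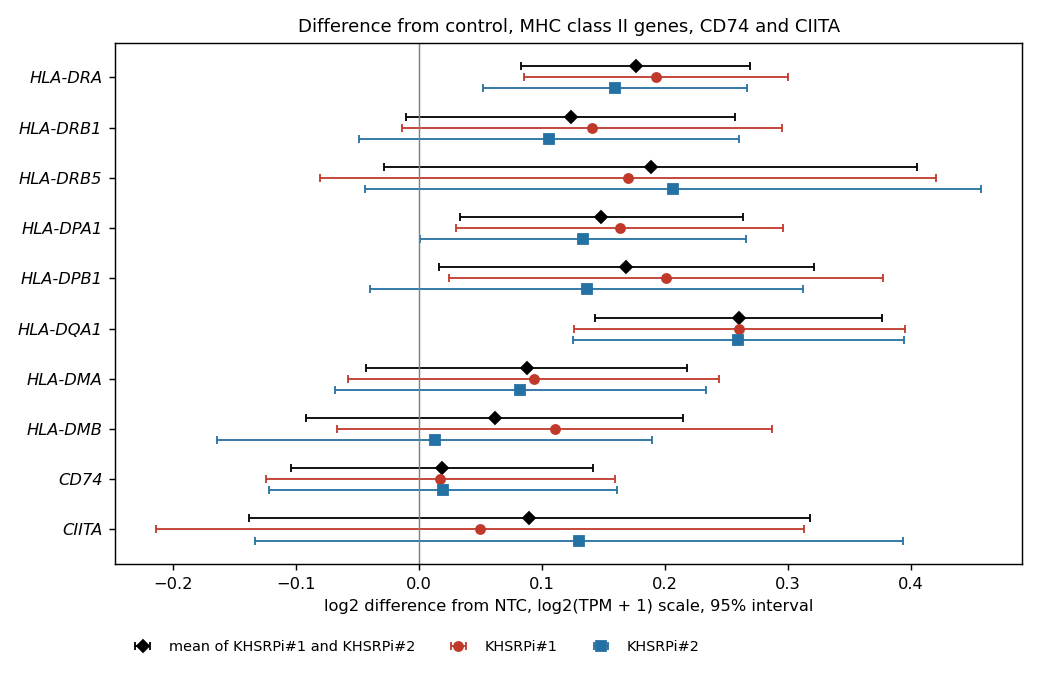
Differences of the 10 genes from control on the log2(TPM + 1) scale, for KHSRPi#1 (circles), KHSRPi#2 (squares) and their mean (diamonds), with 95% confidence intervals from limma over 9 libraries. Both groups are set against the same 3 control libraries, and the intervals describe the spread and are not read as tests. The values run from 0.01 for HLA-DMB in KHSRPi#2 to 0.26 for HLA-DQA1 in both groups.

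Both knockdown groups share their control libraries and made up the contrast on which the genes were chosen, so their separate values are a description. The median of all tested genes was 0.01 in KHSRPi#1 and 0.03 in KHSRPi#2. HLA-DQA1 differed from control by 0.26 in KHSRPi#1 and by 0.26 in KHSRPi#2, and HLA-DRA by 0.19 and 0.16. For HLA-DPA1 the values were 0.16 and 0.13, for HLA-DPB1 0.20 and 0.14, for HLA-DRB1 0.14 and 0.11 and for HLA-DRB5 0.17 and 0.21. The values were 0.09 and 0.08 for HLA-DMA, 0.11 and 0.01 for HLA-DMB, 0.02 and 0.02 for CD74 and 0.05 and 0.13 for CIITA.

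The difference of KHSRPi#2 from KHSRPi#1 uses no control value and played no part in the choice of the genes. Its intervals and p-values rest on the spread within all 9 libraries, controls included. With limma, 0 of the 10 genes were called, as were 0% of all tested genes, and 0 of the 10 and 115 of all genes had an unadjusted p under 0.05. The log2 difference, KHSRPi#2 minus KHSRPi#1, was -0.03 for HLA-DRA, with a 95% interval from -0.14 to 0.07, and -0.00 for HLA-DQA1, with an interval from -0.14 to 0.13. For CD74 it was 0.00, with an interval from -0.14 to 0.14. The intervals were wider for HLA-DRB5, from -0.21 to 0.29, and for CIITA, from -0.18 to 0.34. These intervals are not a limit of detection. With 3 libraries a group and adjustment over all tested genes, larger differences could also go without a call.

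The ratios between partner chains describe the genes against each other within a library. HLA-DPA1 stood at 8.40 to 9.20 times the level of HLA-DPB1 over the 9 libraries. HLA-DRA stood at 0.937 to 0.959 times the sum of HLA-DRB1 and HLA-DRB5 in the 3 libraries numbered 3, and at 1.03 to 1.08 times that sum in the other 6. The ratio of HLA-DMA to HLA-DMB was 1.92 to 2.18 in the libraries numbered 3 and 2.27 to 2.52 in the others. Neither of these ratios overlapped between the libraries numbered 3 and the rest, in any of the 3 groups.

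Other ratios were compared between the study's groups. The level of CD74 was 21.3 to 24.7 times that of HLA-DRA in the control libraries and 19.0 to 20.8 times in the knockdown libraries. HLA-DQA1 stood at 3.55, 3.74 and 3.98 times the level of its beta chain HLA-DQB1 in the control libraries, given here from the lowest to the highest, and at 3.96 to 4.32 times in the knockdown libraries. The first ratio did not overlap between knockdown and control, and the second did. Both contain a gene chosen on this contrast and are given without a test.

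**Figure D3:**
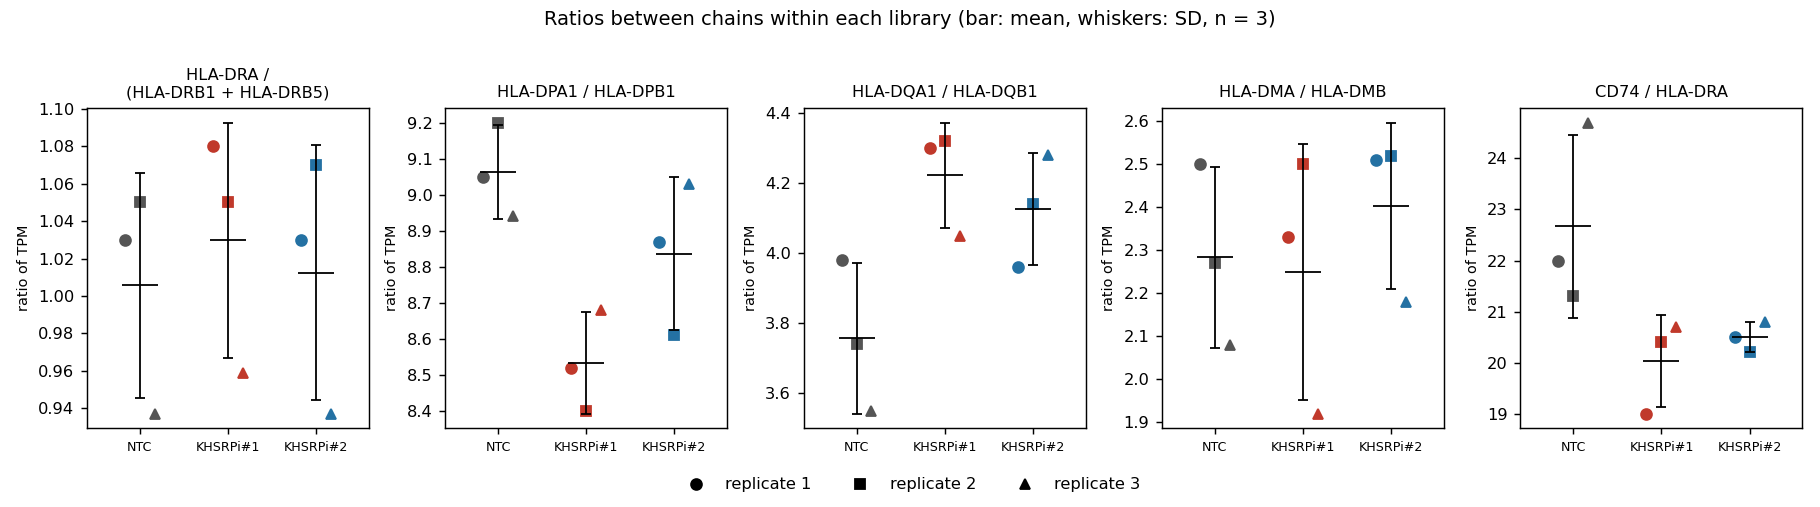
Ratios of TPM between partner genes in each of the 9 libraries, 1 panel for each ratio, with a mark for the replicate number, and the mean and SD of each group as bar and whiskers; the axes do not start at 0. The ratio of HLA-DRA to the HLA-DR beta chains is under 1 in the 3 libraries numbered 3 and above 1 in the other 6.

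The libraries numbered 3 differed from those numbered 1 and 2 in every group, a contrast balanced over knockdown and control that the choice of the genes did not use. The contrast itself was chosen because an earlier look at these libraries had found those numbered 3 apart. Its p-values are therefore not those of a grouping set in advance. HLA-DRB5, HLA-DRB1 and CD74 were higher in the libraries numbered 3 and CIITA was lower (limma with group as covariate, adjusted over all 10939 genes). HLA-DRB5 was higher by 0.26 on the log2 scale (SE 0.05, adjusted p = 0.00209), 37.1 TPM on average against 30.7 TPM. CD74 was higher by 0.13 (SE 0.03, adjusted p = 0.00822) and HLA-DRB1 by 0.12 (SE 0.04, adjusted p = 0.0461). CIITA was lower, at -0.23 (SE 0.07, adjusted p = 0.0288), with 12.8, 15.0 and 15.8 TPM in the libraries numbered 3.

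Thus 3 of the 10 genes were called higher and 1 lower, where 18.7% of all tested genes were called higher and 11.6% lower. The value was positive for 8 of the 10 genes and negative for CIITA, the transactivator, and HLA-DMA. HLA-DMA had -0.11 (adjusted p = 0.0815), HLA-DMB 0.11 (adjusted p = 0.154), HLA-DPA1 0.10 (adjusted p = 0.0786) and HLA-DQA1 0.10 (adjusted p = 0.0772). HLA-DRA had 0.04 (adjusted p = 0.477), with a 95% interval from -0.04 to 0.11, and HLA-DPB1 0.06 (adjusted p = 0.484). The median was 0.10 for the 10 genes and 0.03 for all tested genes.

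**Figure D4:**
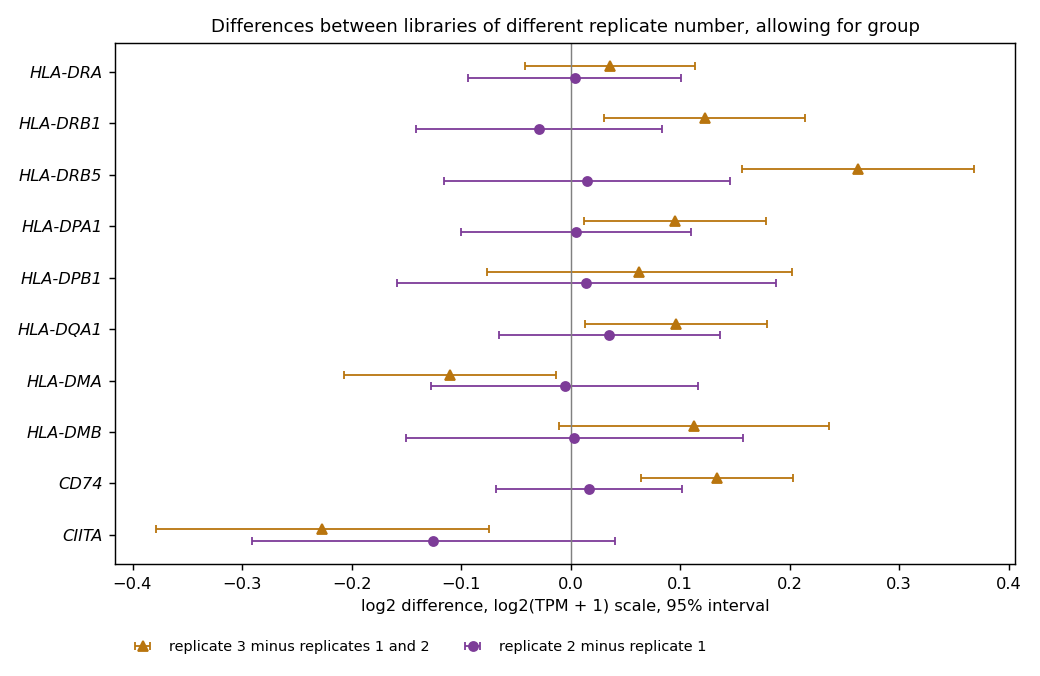
Differences between the 3 libraries numbered 3 and the 6 others (triangles) and between those numbered 2 and 1 (circles) for the 10 genes, on the log2(TPM + 1) scale with 95% confidence intervals from limma with group as covariate. HLA-DRB5 at 0.26 and CIITA at -0.23 mark the ends of the range of the triangles, and all intervals of the circles include 0.

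The call of HLA-DRB5 held in 9 of 9 fits that left out 1 library, that of CD74 in 7, that of CIITA in 5 and that of HLA-DRB1 in 2. The call of CD74 was lost without replicate 3 of NTC (adjusted p = 0.0664) or of KHSRPi#1 (0.0590), and that of CIITA without replicate 3 of any group or without KHSRPi#2 replicate 1 (adjusted p from 0.0521 to 0.240). Without NTC replicate 3 the value for CIITA was -0.15 (adjusted p = 0.240) and 1 of the 10 genes was called. The number called was also 1 without KHSRPi#1 replicate 3, and was 2 without KHSRPi#2 replicate 3. After rescaling each library by its median ratio, HLA-DRB1 was no longer called (adjusted p = 0.0663) and HLA-DMA was called lower, at -0.14 (adjusted p = 0.0266), and the calls over all genes split into 1792 higher and 1945 lower against 2045 and 1269 without rescaling. Between replicates 2 and 1, limma called 0 of the 10 genes and 0% of all tested genes, with an unadjusted p under 0.05 for 0 of the 10 and 376 of all.

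The difference between knockdown and control was also taken within replicate numbers. For HLA-DRB5 it was 0.12 in the libraries numbered 1 and 2 and 0.32 in those numbered 3, and for CIITA 0.01 and 0.25. For HLA-DQA1 it was 0.22 and 0.34, for HLA-DRA 0.14 and 0.24, for HLA-DPA1 0.14 and 0.16, for HLA-DRB1 0.11 and 0.15 and for HLA-DMB 0.04 and 0.10. The value was smaller in the libraries numbered 3 for HLA-DPB1 (0.18 and 0.14), HLA-DMA (0.09 and 0.08) and CD74 (0.03 and -0.01). A test of the difference between these values, chosen after they were seen and with 1 control library numbered 3, called 0 of the 10 genes and 0% of all tested genes with limma, and 0 of the 10 and 243 of all had an unadjusted p under 0.05.

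Levels of marker genes of other cells are given beside these contrasts, and their part in the results was not tested. Of 14 markers of plasmacytoid dendritic cells and BPDCN, 11 were tested and IL3RA, a defining marker that encodes CD123, was listed at 0 in all 9 libraries. IL3RA lies in a region shared by both sex chromosomes, and 10 of 11 other genes of such regions, looked up after this was seen, were also listed at 0 in all libraries, among them SLC25A6, a mitochondrial carrier gene that cells in general use. The 0 is therefore not read as a lack of expression. In the libraries numbered 3, 1 of the 11 was called higher and 8 were called lower, beside 18.7% and 11.6% of all tested genes. Among the lower were GZMB (-0.75), NRP1 (-0.45), SPIB (-0.38) and CLEC4C (-0.34). The summed level of the 14 was 1470 to 1620 TPM in the libraries numbered 3 and 1470 to 1740 TPM in the others. Between knockdown and control 0 of the 11 were called with limma, and 5 had an unadjusted p under 0.05, beside 867 of all tested genes. The summed levels were 1470 to 1490 TPM in control and 1610 to 1740 TPM in knockdown. These sums rest largely on TCL1A, the most abundant of the 14, at 772 to 836 TPM in control and 860 to 933 TPM in knockdown. Of the 11, 9 had a positive value and 2 a negative one, CD4 (-0.02) and BCL11A (-0.04). With the term for the libraries numbered 3, GZMB (0.99), CLEC4C (0.36), IRF7 (0.35) and TCL1A (0.17) were called higher in knockdown, as were 1.27% of all tested genes.

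Markers of other blood cells were read in the same way. The 7 B cell markers summed to 3.63 to 5.56 TPM, with EBF1 among those listed at 0. CD79A, a part of the B cell receptor, was called higher in the libraries numbered 3 (0.42, adjusted p = 0.0315), where the B cell sum was 4.90 to 5.56 TPM against 3.63 to 4.59 TPM in the others. Of the 7 monocyte markers only LYZ passed the filter, and FCGR3A, S100A8 and S100A9 were listed at 0. The summed monocyte level was 36.9 to 42.0 TPM in the libraries numbered 3 and 59.4 to 91.0 TPM in the others, and LYZ was called lower there (-0.92). The 7 markers of conventional dendritic cells summed to 302 to 337 TPM, nearly all of it CD1C, called lower in the libraries numbered 3 (-0.31), and FLT3, called higher there (0.68), with XCR1 listed at 0. The 7 T and NK cell markers summed to 5.95 to 11.9 TPM, with CD3D and CD8A listed at 0, and GNLY was called higher in the libraries numbered 3 (0.41, adjusted p = 0.0413). Between knockdown and control, the summed levels of all 4 of these lists overlapped, but these sums rest on 1 or 2 abundant genes. GNLY had -0.52 in knockdown (limma, adjusted p = 0.548, and adjusted p = 0.0379 with the replicate block). CLEC10A, a conventional dendritic cell marker under the level filter and named after its values were seen, stood at 1.30 to 2.29 TPM in control and 0.218 to 0.814 TPM in knockdown. The 2 tested genes of that list had positive values in knockdown, 0.03 for CD1C and 0.15 for FLT3.

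Other class II genes were read beside the 10. Of 8 further genes, 6 were in the table and 4 passed the filter; HLA-DRB3 and HLA-DRB4 were not analysed here. HLA-DQB1, the partner of HLA-DQA1, had means of 16.8 TPM in NTC, 17.9 TPM in KHSRPi#1 and 18.3 TPM in KHSRPi#2. HLA-DRB6, a pseudogene, ranged from 11.6 to 15.0 TPM, HLA-DQA2 from 4.25 to 6.03 TPM and HLA-DOB, a chain of the inhibitor of HLA-DM, from 1.25 to 1.90 TPM. HLA-DQB2 and HLA-DOA, the partner of HLA-DOB, had a mean under 1 TPM. Between knockdown and control 0 of the 4 were called with limma, 0 at an unadjusted p under 0.05, with values of 0.10 for HLA-DQB1, 0.12 for HLA-DQA2, 0.04 for HLA-DOB and 0.07 for HLA-DRB6, in a contrast where 58.3% of all tested genes were positive. HLA-DQA2 was called higher in the libraries numbered 3 (0.24, adjusted p = 0.0134) and HLA-DQB1 had 0.13 (adjusted p = 0.0687).

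The factors that bind class II promoters were not called between knockdown and control, between KHSRPi#2 and KHSRPi#1 or in the libraries numbered 3. All 8 passed the filter, led by RFX5 at 81.1 TPM. Between knockdown and control the values were 0.09 for RFX5, -0.01 for RFXANK and -0.08 for RFXAP, the subunits of the RFX complex. They were -0.06 for NFYA, 0.03 for NFYB and -0.04 for NFYC, the subunits of NF-Y, and 0.02 for CREB1 and -0.06 for ATF1. At an unadjusted p under 0.05, limma gave 0 of the 8 between knockdown and control, beside 867 of the 10939 tested genes. In the libraries numbered 3 limma gave 2 of the 8, beside 4556 of all tested genes. The 2 were NFYB at 0.12 (limma, adjusted p = 0.0558) and RFXANK at -0.11 (adjusted p = 0.114).

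Genes that act on CIITA transcription, 16 of 17 of them tested, were called in 0 cases between knockdown and control (limma, 0 at an unadjusted p under 0.05). In the libraries numbered 3, where CIITA was lower, 4 of the 16 were higher and 3 lower, beside 18.7% and 11.6% of all tested genes. IRF8, an interferon regulatory factor and the most abundant of the list at 2520 TPM, was higher by 0.24 (adjusted p = 0.000438), as were IRF2 by 0.44, SPI1 by 0.27 and MYC by 0.25. USF1, a factor that binds an E box of a CIITA promoter, was lower, at -0.26 (adjusted p = 0.000184), as were PRDM1, a repressor of CIITA, at -0.44 (adjusted p = 0.00343) and IRF4 at -0.19 (adjusted p = 0.00974). SPI1, PRDM1 and IRF4 were added to the named genes after their values were seen.

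Genes of endosomal processing, class I presentation and costimulation act beside class II in antigen presentation. Of 14 endosomal genes, 10 were tested and 0 were called between knockdown and control, 1 at an unadjusted p under 0.05. With the term for the libraries numbered 3, CTSC, the protease cathepsin C, was called higher (0.17, adjusted p = 0.0411). In the libraries numbered 3, 4 of the 10 were called lower, beside 11.6% of all tested genes. The 4 were the cathepsins CTSZ (-0.28) and CTSB (-0.21), the membrane protein CD83 (-0.26) and SPPL2A, the protease that cleaves the membrane stump of CD74 (-0.19). Of 15 tested class I genes, 0 were called between knockdown and control (0 at an unadjusted p under 0.05). In the libraries numbered 3, 0 of the 15 were called higher and 2 lower, beside 18.7% and 11.6% of all tested genes. The 2 were the chaperones CALR (-0.55) and PDIA3 (-0.23). HLA-F was listed at 0. Of 10 costimulatory genes 5 were tested, led by CD86 at 26.8 TPM, and 0 were called with limma in either contrast. At an unadjusted p under 0.05, limma gave 2 of the 5 between knockdown and control, beside 867 of all 10939 tested genes. The 2 were TNFSF9 (-0.17) and ICAM1 (-0.13), both lower in knockdown, and the other 3 tested genes had positive values. In the libraries numbered 3 it gave 0 of the 5, beside 4556 of all tested genes.

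Across the 9 libraries the 10 genes did not follow a single profile. Pearson's r of each gene with the mean standardised profile of the other 9 genes was 0.967 for HLA-DPA1, 0.956 for HLA-DQA1, 0.942 for HLA-DRA, 0.920 for HLA-DPB1 and 0.903 for HLA-DRB1. It was 0.776 for HLA-DRB5, 0.577 for HLA-DMB and 0.416 for CD74. HLA-DMA had 0.0957 and CIITA -0.0941. These are descriptions over 9 libraries that share the group and the replicate 3 differences given above.

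Outside the list, the tested genes most like the mean profile of the 10 were GSS, the glutathione synthetase gene (r = 0.970 over 9 libraries), TMCC1-AS1 (0.968), LOC100507600 (0.946), TRIM66 (0.940) and BCDIN3D (0.937). Their mean levels were 23.9, 9.01, 33.4, 2.68 and 4.34 TPM in that order. All had a positive difference between knockdown and control, from 0.15 for GSS to 0.44 for LOC100507600. The mean profile holds the contrast on which the 10 genes were chosen, and these genes were picked for the highest r. The r values are therefore a description, and shared regulation was not tested.

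The 3′ untranslated regions of the genes were searched for ATTTA, the core of AU-rich elements, in the longest annotated region of each gene (GENCODE 29). It was found in 4 of the 10 genes and in 73.5% of 9770 tested genes with such a region. CIITA held 19 matches in 12533 bases, HLA-DPB1 2 in 667, HLA-DQA1 2 in 721 and CD74 1 in 635. HLA-DRA, HLA-DRB1, HLA-DRB5, HLA-DPA1, HLA-DMA and HLA-DMB held none in regions of 251 to 791 bases. The median region was 520 bases for the 10 genes and 1354 bases for all. The longer TATTTAT, which contains ATTTA, was found in CIITA and in 35.1% of all.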

How the data were processed

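The values deposited by the authors are TPM, 1 row for each gene symbol and 1 column for each of the 9 CAL-1 libraries, and each column sums to 1000000. RNA came from a column kit and the library protocol names Roche Kapa, per the labels' protocols. The submitters' processing notes name hg38; the sources used here do not give the aligner, counting tool, annotation or use of strand. Sample titles gave the groups and replicate numbers.

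Genes with a mean of at least 1 TPM were tested on the log2(TPM + 1) scale, which adds a pseudocount of 1. One limma fit (version 3.58.1, R 4.3.3) held all 9 libraries, with moderated variances that follow the mean level and two-sided tests. Benjamini-Hochberg adjustment ran over the 10939 tested genes, and a gene was called at an adjusted p under 0.05. The libraries numbered 3 were compared with the others in a fit with group as covariate. Without read totals in TPM a count model cannot be used, and the precision rests on the replicates.

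The 10 genes, the gene lists and the contrast of the libraries numbered 3 were chosen with earlier results of these data known. Named besides the 10 genes were KHSRP, the other class II genes, the class II promoter factors, the most abundant and up to 4 called members of each other list, and the 5 genes of most similar profile. Only the fit of knockdown against control without covariates was run on simulated data, with independent noise and no difference of the libraries numbered 3. The other fits were not simulated, and no result here rests on the simulation. Ratios, sequence searches and figures used Python 3.11.15. Alternatives were the pseudocount, the filter, 2 rescalings, robust and weighted fits, a replicate block, a term for the libraries numbered 3 and leaving out each library.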

Additional observations from a re-analysis of the deposited data

How the results depend on the processing

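Over 30 alternatives the median difference of the 10 genes between knockdown and control ran from 0.10 to 0.16, with at least 9 genes positive. The number called was 0 in the main fit and in 20 alternatives; it was 2 with a term for the libraries numbered 3, and 1 or 2 in 8 of the 9 fits that also left out a library. The replicate block gave 1 (HLA-DQA1) and 152 genes in all against 9. Pairing was read from correlations between libraries of different groups, taken on deviations from the group means. For the same number, r was 0.622 to 0.628 for number 3 and 0.0398 to 0.324 for numbers 1 and 2. Between a library numbered 1 and one numbered 2 it was 0.238 to 0.371, so the numbers were not taken to pair the samples. Between KHSRPi#2 and KHSRPi#1 the count was 0 in all 30 alternatives. In the contrast of the libraries numbered 3, array weights gave 7 called genes against 4, and leaving out 1 library gave 1 to 4. There HLA-DRB5 was called in all 17 alternatives, CD74 in 15, CIITA in 12 and HLA-DRB1 in 6. Without a filter HLA-DRB1 and CIITA were not called (adjusted p = 0.0569 and 0.0882), while HLA-DPA1 was. Rescaling moved the split of all called genes from 61.7% higher to 48.0% by median ratio and 48.2% by quantiles, and in the knockdown contrast from 5 higher and 4 lower to 4 and 5, where CD74 turned negative. No called value changed sign. With a minimum of 5 TPM HLA-DPB1 was not tested. The cause of these shifts was not tested. Depth is unknown, and reads shared between class II genes limit single values.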
